A study of Mus musculus with 48 samples.

Results

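The genes described here were 9 components of Gq signalling, chosen by symbol with earlier results of these data known. They were the metabotropic glutamate receptor Grm5, the muscarinic acetylcholine receptors Chrm1 and Chrm3, the G protein alpha subunits Gnaq and Gna11, the phospholipase C beta isoforms Plcb1, Plcb3 and Plcb4, and the IP3 receptor Itpr1. All 9 were found among the 52636 genes of the table, and all 9 passed the low-level filter in every comparison. RNA had been sequenced from amygdala punches of 48 female mice, 8 in each of 6 groups, of the line labelled C57BL/6NTac-Brd1 and 8 to 11 weeks old per the study's methods. Litter-matched wild-type (WT) mice and mice heterozygous for a targeted deletion within Brd1 (Brd1+/-), a gene for a bromodomain protein of histone acetyltransferase complexes, had been injected with saline (vehicle), with the tricyclic antidepressant imipramine (IMN) at 10 mg/kg or with the serotonin reuptake inhibitor fluoxetine (FLX) at 5 mg/kg. All 6 groups had been through the tail suspension, open field and forced swim tests, the last about an hour before the tissue was taken. The comparisons asked whether the genotype altered these transcripts in each treatment, and whether either antidepressant altered them in each genotype.

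Gq-coupled receptors answer glutamate, acetylcholine and other transmitters by loading GTP onto the alpha subunits Gnaq or Gna11, which switch on phospholipase C beta. That enzyme splits a membrane phosphoinositide into diacylglycerol, which activates protein kinase C, and IP3, which opens the IP3 receptor on the endoplasmic reticulum and releases calcium. In forebrain neurons the cascade is known for shaping excitability and synaptic plasticity, and its phospholipase isoforms are used by different neuron types, Plcb1 in much of the cortex, hippocampus and striatum and Plcb4 in thalamus and cerebellum.

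On GRCm38 the members lay on 6 chromosomes. Plcb1 (chr2:134786067-135475258, plus strand) and Plcb4 (chr2:135659011-136014593, plus strand) were neighbours, 183752 bases apart. Chrm1 (chr19:8663789-8683587, plus strand), Plcb3 (chr19:6952325-6976470, minus strand) and Gnaq (chr19:16132831-16387463, plus strand) shared chromosome 19. Gna11 lay at chr10:81528724-81545190 (minus strand), Grm5 at chr7:87584168-88134907 (plus strand), Itpr1 at chr6:108213096-108551109 (plus strand) and Chrm3 at chr13:9875486-10360847 (minus strand). Values are sums over each gene's transcripts and do not separate exons or isoforms. Exons of 4 members overlapped those of a gene on the other strand, and whether counting used strand is not stated. The largest such overlap was 329 bases of Chrm1, 5.07% of its exonic length, with Gm22820, which was listed at 0 in every library.

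RefSeq promoter windows (GRCm38.p6) were found for 6 of the 9 members, with 7 windows in all because Plcb4 had a pair of start sites. The windows shown are of the alpha subunits, which varied together between libraries, and of Plcb1 and Plcb4, which varied in opposite directions. Each reads 5′ to 3′ on the gene's own strand and ends at the base before the start site or exon, and capitals mark the letters of a GC box, GGGCGG on either strand.
Gnaq, chr19:16132434-16132683, plus strand: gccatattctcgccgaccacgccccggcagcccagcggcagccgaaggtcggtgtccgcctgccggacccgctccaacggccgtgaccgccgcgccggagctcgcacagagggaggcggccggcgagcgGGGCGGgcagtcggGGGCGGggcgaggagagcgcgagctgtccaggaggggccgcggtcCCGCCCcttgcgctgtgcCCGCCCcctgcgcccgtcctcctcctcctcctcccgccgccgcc
Gna11, chr10:81545191-81545412, minus strand: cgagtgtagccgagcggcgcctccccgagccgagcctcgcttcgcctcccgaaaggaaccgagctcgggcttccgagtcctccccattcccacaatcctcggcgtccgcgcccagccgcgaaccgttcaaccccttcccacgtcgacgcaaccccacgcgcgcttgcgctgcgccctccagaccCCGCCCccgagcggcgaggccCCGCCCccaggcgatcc
Plcb1, chr2:134785914-134786066, plus strand: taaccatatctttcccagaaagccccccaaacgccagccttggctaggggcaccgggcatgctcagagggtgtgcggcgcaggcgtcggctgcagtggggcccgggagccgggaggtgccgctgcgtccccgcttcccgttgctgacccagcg
Plcb4, upstream start, chr2:135659455-135659546, plus strand: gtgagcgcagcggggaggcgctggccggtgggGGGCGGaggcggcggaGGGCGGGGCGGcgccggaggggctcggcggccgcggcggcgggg
Plcb4, downstream start, chr2:135764588-135764837, plus strand: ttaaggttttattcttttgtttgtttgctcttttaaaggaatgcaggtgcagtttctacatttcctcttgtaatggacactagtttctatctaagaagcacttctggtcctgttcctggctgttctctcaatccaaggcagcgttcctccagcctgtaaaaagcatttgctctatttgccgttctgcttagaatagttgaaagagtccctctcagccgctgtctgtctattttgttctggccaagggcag

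Over the whole 250 bases before each start, GC boxes (a match that overlaps the one before it not counted) numbered 4 for Gnaq, 2 for Gna11, 1 for Plcb1, 5 for Plcb3 and 5 for the upstream start of Plcb4, with 0 for its downstream start and 0 for Chrm3. Of 32851 RefSeq windows of that length, 32.7% held at least 1. CG pairs numbered 42 before the upstream Plcb4 start and 3 before the downstream start, against 37 for Gnaq, 38 for Gna11, 22 for Plcb1 and a median of 6 over all windows. The TATA box (TATAAA, in 12.4% of all windows) and the cAMP response element (TGACGTCA, in 1.55%), each searched on both strands, matched none of the 7.

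Levels are given as TPM, in which reads are divided by gene length and scaled to the same sum in every library, so that levels of different genes can be set side by side. How deeply the libraries were sequenced cannot be read from TPM, and the values carry no counting interval. Itpr1, the calcium release channel, was the most abundant member at a mean of 179 TPM over the 48 libraries, followed by Grm5 at 102 TPM. The alpha subunits Gnaq (85.4 TPM) and Gna11 (83.4 TPM) and the phospholipase Plcb1 (77.2 TPM) came next, then the receptor Chrm1 (48.7 TPM) and Plcb4 (37.2 TPM), with Chrm3 (23.2 TPM) and Plcb3 (10.8 TPM) lowest. Of the 8 neighbouring pairs in this order, 6 differed on average within libraries (sign-flip permutation test on log2 ratios with 100000 draws, 2-sided, Benjamini-Hochberg adjusted p of at most 0.0238). The pairs were set by the order in these same libraries, so the test is no independent check of that order. Gnaq exceeded Gna11 in 30 of 48 libraries (adjusted p = 0.458, permutation) and Chrm1 exceeded Plcb4 in 29 of 48 (adjusted p = 0.281, permutation), and neither mean log2 ratio passed the threshold. The order was not shared by both sets of libraries described below. In the 35 of lower striatal marker level, Gnaq (mean 92.2 TPM) lay above Grm5 (88.9 TPM). In the other 13, Plcb1 (mean 122.8 TPM) lay above Gna11 (75.8 TPM).

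The members differed widely in how much they varied between mice of a group. The ubiquitous subunit Gna11 ranged only from 67.6 to 101 TPM over all libraries, with a pooled within-group SD of 0.18 on the log2 scale. Plcb3 (0.28) and Gnaq (0.29) were likewise near the median SD of 0.31 of 11580 protein-coding genes with a mean of at least 5 TPM. Grm5 (0.43), Plcb1 (0.63), Plcb4 (0.73), Chrm3 (0.79), Itpr1 (0.95) and Chrm1 (1.00) all exceeded that median. Chrm1, the main muscarinic receptor of cortical and striatal neurons, ranged from 2.39 to 92.3 TPM, a 38.5-fold span. Itpr1 spanned 9.98-fold, from 49.7 to 496 TPM.

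**Figure D1:**
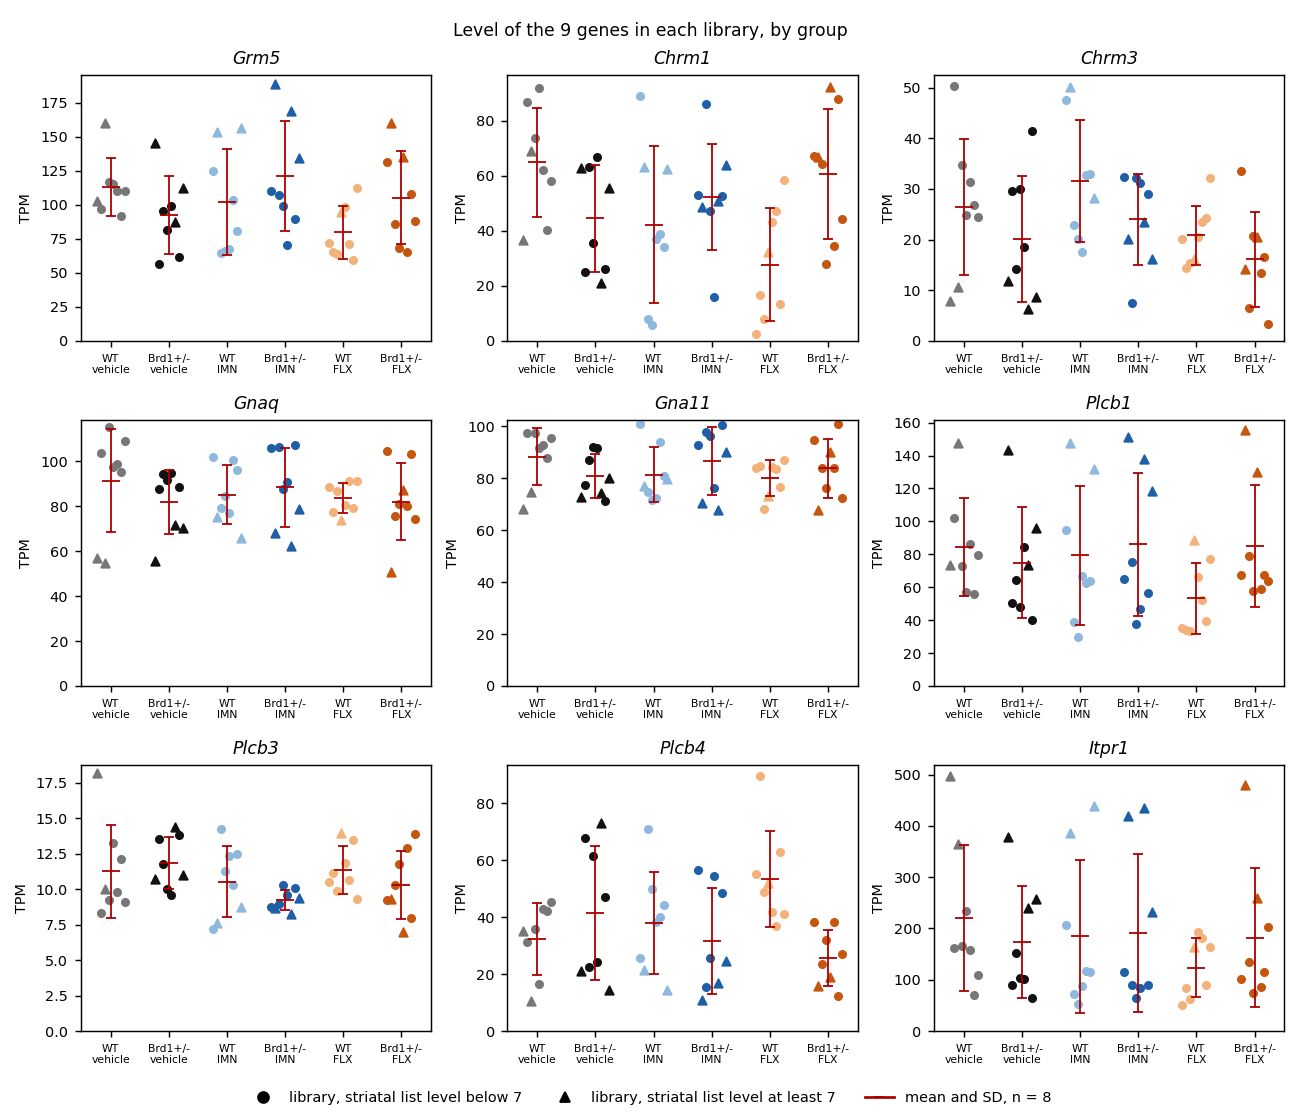
Level of each of the 9 genes (TPM, linear axis) in the 48 libraries, by group, with each point a mouse, triangles the libraries with a striatal marker level of at least 7, and red marks the group mean ± SD (n = 8). Itpr1 and Plcb1 are highest in triangles and Gnaq lowest in them, and the WT FLX points of Plcb4 lie at 37.0 to 89.7 TPM against 12.5 to 38.4 TPM in Brd1+/- FLX.

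A set of libraries stood apart in the markers they carried, and this touched most members. On a list of 8 genes that mark striatal projection neurons, including Drd1, Drd2 and Adora2a, 13 libraries had a mean log2 level of 7.13 or more and the other 35 lay at 6.25 or less. The 13 numbered 2 in WT vehicle, 3 in Brd1+/- vehicle, 2 in WT IMN, 3 in Brd1+/- IMN, 1 in WT FLX and 2 in Brd1+/- FLX. Of 10 markers of the amygdala, 7 were above 0 in all 48 libraries (Sst, Wfs1, Meis2 and Prkcd at no less than 8.40 TPM, Tshz1 at no less than 5.63 TPM, Foxp2 down to 0.304 TPM and Rspo2 down to 0.0818 TPM), while Dlk1 was at 0 in 11 libraries, Tac2 in 3 and Crh in 1. Their summed level ranged from 502 to 2249 TPM over the libraries. Their mean log2 level ran from 2.67 (Brd1+/- FLX 2) to 5.43 (Brd1+/- IMN 8) in the 13 libraries. In the 35 others it ran from 4.165 (WT vehicle 5) to 6.15 (Brd1+/- vehicle 5). In bulk tissue, a change in the number of cells of a type and a change in RNA per cell cannot be told apart. Brd1 itself was lower in Brd1+/- mice in each treatment, at 25.95 ± 2.90 against 35.6 ± 5.09 TPM under vehicle, 23.4 ± 4.84 against 36.9 ± 2.83 TPM under IMN and 23.5 ± 3.49 against 32.9 ± 4.45 TPM under FLX (SD, n = 8 each), and over all 48 libraries the difference was -0.54 on the log2 scale (limma, adjusted p = 8.9e-07).

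Itpr1 had the largest ratio between the sets. Its median was 378 TPM in the 13 libraries with high striatal markers and 102 TPM in the 35 others, a ratio of 3.72, and 11 of the 13 exceeded every one of the 35. Plcb1 stood at 132.1 against 62.3 TPM, with 9 of the 13 above all of the 35, and Grm5 at 146 against 89.6 TPM, also with 9 above. Gnaq went the other way, at 68.2 against 91.4 TPM, and 10 of the 13 lay below all of the 35. Plcb4 had a median of 19.0 against 41.0 TPM, although only 2 of the 13 fell outside the range of the others. Chrm1 stood at 62.5 against 44.3 TPM (1 of the 13 above all of the 35) and Chrm3 at 16.2 against 24.5 TPM (0 outside their range). Gna11 stood at 74.4 against 86.8 TPM (2 below) and Plcb3 at 9.36 against 10.3 TPM (2 above and 1 below). These are descriptions of sets defined from the data, and no test was attached to them.

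**Figure D2:**
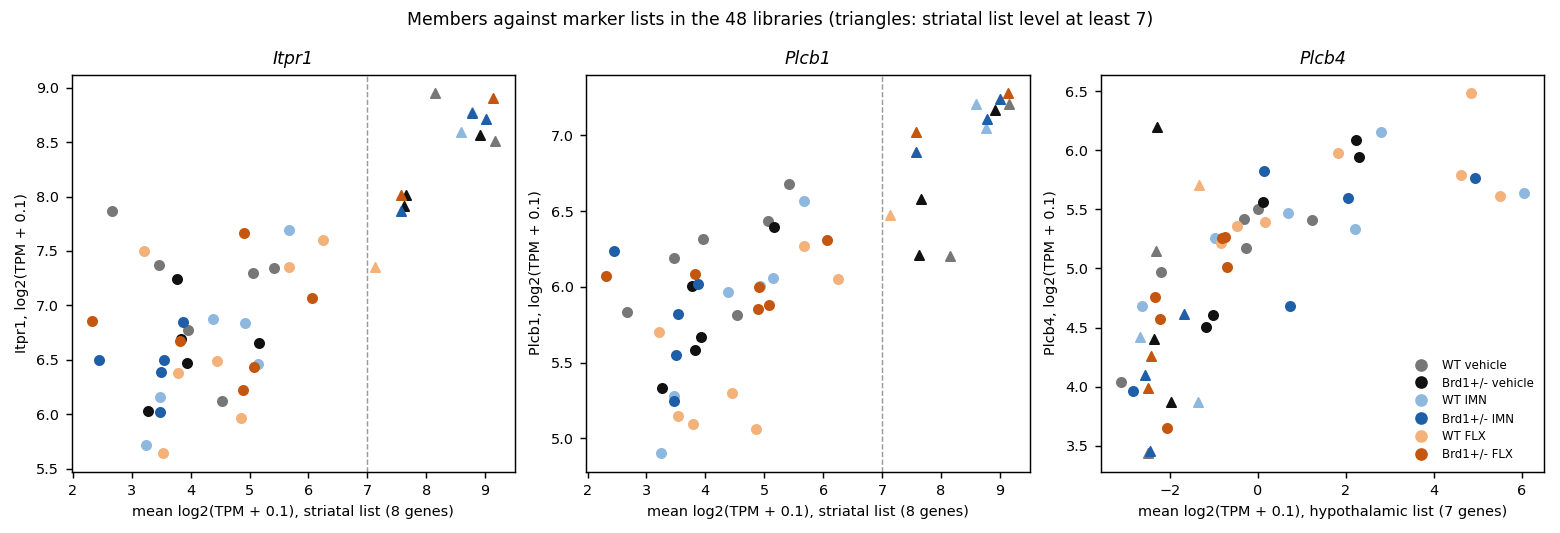
Log2 level of Itpr1 and Plcb1 against the mean log2 level of the striatal marker list, and of Plcb4 against that of the hypothalamic marker list, with each point a library coloured by group. Itpr1 and Plcb1 are high in the 13 libraries whose striatal level is 7.13 or more, and the Brd1+/- FLX libraries sit at the low end of the hypothalamic axis.

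In vehicle-treated mice, most of the 9 transcripts were lower in Brd1+/- than in WT animals, but none of the differences was significant. Differences are of log2(TPM + 0.1), Brd1+/- minus WT, each with its SE. Their median over the members was -0.22, with 7 below 0 and 2 above, against a median of 0.03 over all genes tested. With limma, 0 of 9 were called at an adjusted p under 0.05 (smallest 0.547), beside 0.708% of the 24279 genes tested, and 1 of 9 had an unadjusted p under 0.05, as had 8.52% of all genes.

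Among the receptors, Chrm1 showed the largest difference. In WT vehicle mice it ranged from 36.6 to 91.8 TPM with a median of 65.7, and in Brd1+/- vehicle mice from 20.97 to 66.8 TPM with a median of 45.5. The groups overlapped over most of their range. The difference was -0.61 ± 0.28 (log2, SE; 95% interval -1.20 to -0.03; limma, unadjusted p = 0.0408, adjusted p = 0.547). Grm5, which carries the slow response to glutamate at excitatory synapses, had a lowest, median and highest value of 91.8, 110.2 and 160.5 TPM in WT and of 56.3, 91.7 and 145.9 TPM in Brd1+/- mice. That difference was -0.33 ± 0.17 (interval -0.69 to 0.03). Chrm3 differed by -0.44 ± 0.42, with an interval that spanned 0 by a wide margin (-1.33 to 0.45).

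Of the alpha subunits, Gna11 stood at -0.12 ± 0.09 (interval -0.31 to 0.07) and Gnaq at -0.13 ± 0.17 (-0.49 to 0.22). Plcb1 stood at 84.5 ± 29.7 TPM in WT and 74.99 ± 33.5 TPM in Brd1+/- mice (SD, n = 8), a log2 difference of -0.22 ± 0.25. Plcb3 (0.10 ± 0.15) and Plcb4 (0.26 ± 0.38) were the members above 0. Itpr1 differed by -0.33 ± 0.41, with an interval from -1.21 to 0.54 that would hold a change in either direction. Without the 5 vehicle libraries of high striatal level, again 0 members were called (Grm5 -0.47 ± 0.15, adjusted p = 0.189; Gnaq -0.17 ± 0.06, adjusted p = 0.241; limma), with 4 at an unadjusted p under 0.05, as had 15.3% of all genes in that fit. Excitatory neuron markers of the cortical type lay in the same direction as these members, all 6 of the list below 0 (median -1.35, 0 called; summed level 8.48 to 1632 TPM in WT and 2.86 to 690.4 TPM in Brd1+/-), and oligodendrocyte markers the other way, all 8 above 0 (median 1.49, 0 called; 718 to 11721 TPM in WT and 2453 to 17129 TPM in Brd1+/-). In a fit with the levels of 4 marker lists (striatal, Slc17a6, cortical-type and oligodendrocyte) as covariates, Grm5 differed by -0.02 ± 0.11 and Chrm1 by 0.21 ± 0.16.

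Under FLX the genotypes differed in Plcb4, the only member called in any of the 12 comparisons. In WT FLX mice Plcb4 stood at 55.1, 89.7, 48.8, 52.0, 41.8, 37.0, 63.1 and 41.0 TPM, and in Brd1+/- FLX mice at 38.1, 15.8, 23.6, 32.1, 19.0, 38.4, 12.5 and 26.9 TPM. The 6 lowest Brd1+/- values lay below every WT value, and the other two, 38.1 and 38.4 TPM, lay just above the lowest WT library. Plcb4 was lower in Brd1+/- mice by -1.10 ± 0.24 on the log2 scale (95% interval -1.60 to -0.60; limma, unadjusted p = 0.000246, adjusted p = 0.0322). Thus 1 of 9 members was called, beside 1.54% of the 23635 genes tested in this comparison, of which 325 were lower and 39 higher.

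The call did not hold under every choice of libraries, and markers of neighbouring regions differed between the same groups. It was lost when any 1 of 8 libraries was left out (WT FLX 1, 2, 3 or 7, or Brd1+/- FLX 3, 5, 7 or 8), with adjusted p from 0.0209 to 0.0749 and a difference from -1.19 to -0.96 over all 16 omissions. Without the 3 FLX libraries of high striatal level the difference was -0.94 ± 0.26 (adjusted p = 0.112), and with the sample code range as a term, -1.06 ± 0.25 (adjusted p = 0.0646). Summed hypothalamic markers (7 genes) ranged from 9.58 to 4242 TPM in WT FLX (median 31.8) and from 2.80 to 15.3 TPM in Brd1+/- FLX (median 6.64), with 5 of 5 tested below 0 and 2 called lower. Summed markers of thalamic and other Slc17a6 neurons (5 genes) ranged from 28.5 to 201 TPM (median 131) and from 14.2 to 61.7 TPM (median 37.2), with 5 of 5 below 0 and 0 called. With the hypothalamic level as a covariate, the Plcb4 difference was -0.66 ± 0.29 (interval -1.27 to -0.06, adjusted p = 0.960).

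Chrm1 and Plcb1 were higher in Brd1+/- than in WT mice under FLX before adjustment for multiple tests, and not after it. Chrm1 stood at 2.39, 16.7, 8.15, 32.5, 43.1, 47.1, 13.5 and 58.4 TPM in WT FLX mice and at 67.0, 66.9, 64.4, 27.9, 92.3, 34.4, 87.8 and 44.3 TPM in Brd1+/- FLX mice. The 5 highest Brd1+/- values exceeded every WT value, and the 4 lowest WT values lay below every Brd1+/- value. The difference was 1.55 ± 0.54 (interval 0.41 to 2.69; limma, unadjusted p = 0.0105, adjusted p = 0.151). Plcb1 had a lowest, median and highest value of 33.3, 45.6 and 88.9 TPM in WT and of 57.7, 67.4 and 155.6 TPM in Brd1+/- mice, a difference of 0.67 ± 0.26 (unadjusted p = 0.0178, adjusted p = 0.191; limma). The other 6 members had unadjusted p-values of 0.0717 or more, with Gnaq (-0.05 ± 0.12) and Gna11 (0.06 ± 0.09) closest to 0. With 3 of 9 members at an unadjusted p under 0.05, Plcb4 included, the share over all genes was 16.6%. With the hypothalamic level as a covariate, Chrm1 differed by -0.023 ± 0.46 and Plcb1 by -0.034 ± 0.24, and with the levels of the 4 marker lists as covariates, by 0.47 ± 0.58 and 0.10 ± 0.17. Striatal markers (8 of 8 above 0, median 0.69, 0 called) and cortical-type excitatory markers (4 of 6 above 0, median 1.12, 0 called) lay in the same direction as these members.

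The FLX comparisons in WT and Brd1+/- mice share their FLX libraries with the genotype comparison above and their vehicle libraries with the vehicle comparison, so they restate part of the same values. In WT mice, FLX against vehicle gave Grm5 -0.52 ± 0.14 (adjusted p = 0.0931), Chrm1 -1.69 ± 0.53 (adjusted p = 0.127), Plcb1 -0.70 ± 0.24 (adjusted p = 0.157) and Plcb4 0.81 ± 0.28 (adjusted p = 0.161), all by limma. These 4 had an unadjusted p under 0.05 and 0 of 9 members were called, beside 0.335% of all genes tested, of which 16.8% had an unadjusted p under 0.05. Without WT FLX 8, Grm5 passed the threshold (-0.59, adjusted p = 0.0366). Without the 3 libraries of high striatal level, Gnaq did (-0.28 ± 0.06, adjusted p = 0.0429), and Grm5 stood at -0.49 ± 0.14 (adjusted p = 0.0662). With the levels of the 4 marker lists as covariates, Grm5 differed by -0.14 ± 0.14, Chrm1 by 0.039 ± 0.61, Plcb1 by 0.037 ± 0.21 and Plcb4 by -0.087 ± 0.32. Between these groups the hypothalamic markers (6 of 6 tested above 0, median 2.59), the oligodendrocyte markers (8 of 8 above 0, median 1.18) and the cortical-type excitatory markers (6 of 6 below 0, median -2.09) each lay on one side of 0, with 0 called. In Brd1+/- mice the same members stood at 0.18 ± 0.22, 0.47 ± 0.31, 0.19 ± 0.27 and -0.55 ± 0.35, and none of the 9 had an unadjusted p under 0.05, beside 0.731% of all genes called and 6.94% with such a p.

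Whether FLX acted differently in the genotypes was tested as an interaction over the 4 groups, counted as the FLX effect in Brd1+/- minus that in WT mice. Chrm1 had the largest value, 2.17 ± 0.63 (interval 0.88 to 3.45; limma, unadjusted p = 0.00171, adjusted p = 0.0697). Plcb4 stood at -1.36 ± 0.47 (adjusted p = 0.127), Plcb1 at 0.89 ± 0.37 (adjusted p = 0.209) and Grm5 at 0.70 ± 0.26 (adjusted p = 0.168). Thus 0 of 9 members were called, beside 1.71% of 26657 genes, and 4 had an unadjusted p under 0.05, as had 16.8% of all genes. The members' median was 0.18, against -0.10 over all genes tested. Chrm1 passed the threshold when WT FLX 6 (adjusted p = 0.0425), WT FLX 8 (0.0321) or Brd1+/- FLX 4 (0.0456) was left out, and its adjusted p then fell just under the threshold. Hypothalamic markers (6 of 6 tested below 0, median -4.02), Slc17a6 neuron markers (5 of 5 below 0, median -0.93), oligodendrocyte markers (8 of 8 below 0, median -2.01) and cortical-type excitatory markers (6 of 6 above 0, median 2.47) each lay on one side of 0 in this contrast, with 0 called. With the levels of the 4 marker lists as covariates, Chrm1 stood at 0.63 ± 0.60, Plcb4 at -0.0054 ± 0.42, Plcb1 at 0.16 ± 0.20 and Grm5 at 0.052 ± 0.16. With the hypothalamic level alone as a covariate, they stood at 0.82 ± 0.56, -0.52 ± 0.46, 0.080 ± 0.32 and 0.23 ± 0.26.

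**Figure D3:**
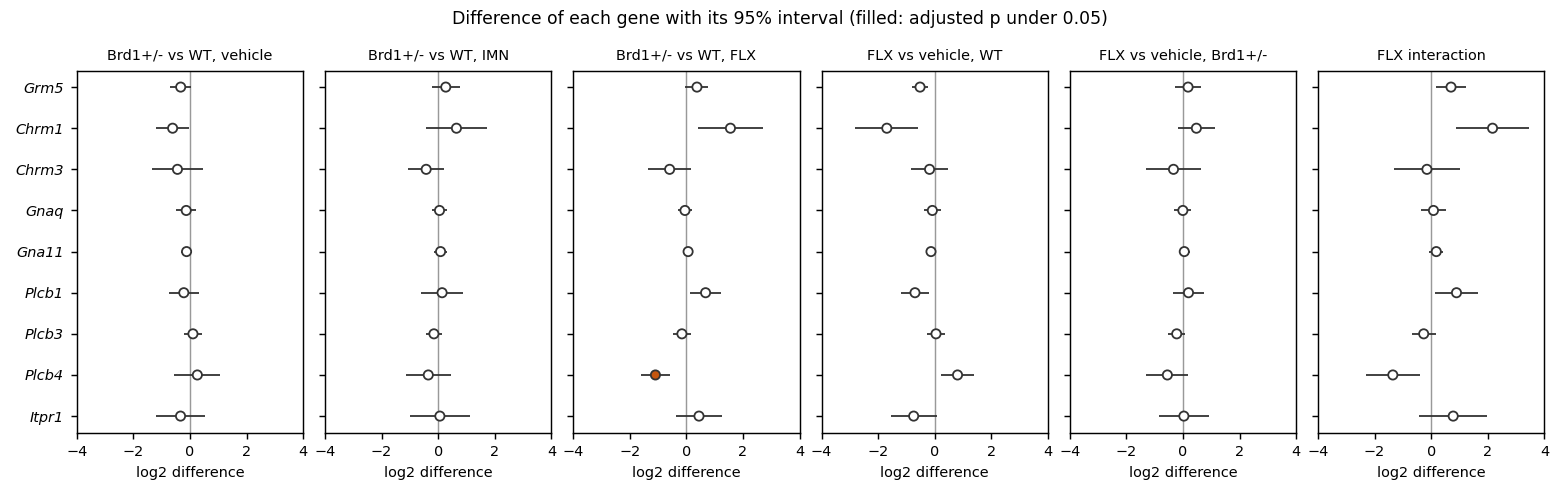
Log2 difference with its 95% interval (horizontal axis, log2 TPM + 0.1) of each member in 6 comparisons: Brd1+/- against WT under vehicle, IMN and FLX, FLX against vehicle in each genotype, and the FLX interaction. The filled point, Plcb4 under FLX at -1.10, is the only one with an adjusted p under 0.05.

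Under IMN, neither genotype nor drug moved any member past the threshold. Between Brd1+/- and WT mice given IMN, 0 of 9 were called and 0 had an unadjusted p under 0.05, beside 0.017% of all genes called and 3.58% with such a p. The differences ran from -0.43 ± 0.30 for Chrm3 to 0.64 ± 0.52 for Chrm1. IMN against vehicle called 0 of 9 members in WT mice, with 0 at an unadjusted p under 0.05 (of all genes, 0% called and 4.58% with such a p), and 0 of 9 in Brd1+/- mice, with 1 at an unadjusted p under 0.05 (of all genes, 0.776% called and 9.30% with such a p). That member was Plcb3, the broadly expressed isoform, at 9.25 ± 0.712 TPM under IMN and 11.9 ± 1.83 TPM under vehicle (SD, n = 8), a difference of -0.34 ± 0.10 (limma, adjusted p = 0.213). In the IMN interaction 0 were called and Chrm1 had the lowest p (1.26 ± 0.61, adjusted p = 0.535), beside 0.536% of all genes.

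FLX against IMN called 0 members in WT mice, where Chrm3 (-0.55 ± 0.22) and Plcb4 (0.59 ± 0.28) had an unadjusted p under 0.05 (adjusted p = 0.858 for both, limma), and 0 in Brd1+/- mice, where no member did (of all genes, 0% called in each, with such a p for 4.78% and 2.99%). Over all treatments together, the genotype called 0 of 9 members, beside 0.0215% of all genes. Chrm3, at -0.49 ± 0.22, had an unadjusted p of 0.0285 there (adjusted p = 0.523, limma), where 8.55% of all genes had one under 0.05. Its group means were lower in Brd1+/- mice in each treatment, at 20.1 ± 12.4 against 26.4 ± 13.4 TPM under vehicle, 24.01 ± 8.94 against 31.5 ± 12.1 TPM under IMN and 16.1 ± 9.36 against 20.8 ± 5.89 TPM under FLX (SD, n = 8), differences within the spread between mice.

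Beyond the 9 members, 68 other genes of the pathway were followed in 5 roles, of which 66 or 67 passed the filter in each comparison. With limma, 0 were called in any of the 12 comparisons, although single libraries decided this in the FLX contrasts. For FLX against vehicle in WT mice, 9 were called without WT vehicle 1, 7 without WT vehicle 7, 5 without WT FLX 8 and 2 without WT FLX 6, in fits that called 4.11%, 2.06%, 1.52% and 0.635% of all genes. In the FLX interaction, 1 to 6 were called without any 1 of WT vehicle 1 or 7, Brd1+/- vehicle 1 or 8, WT FLX 6 or 8, or Brd1+/- FLX 4 or 6, in fits that called 1.69% to 2.62% of all genes. In the FLX genotype comparison, 1 was called without WT FLX 6 and 1 without Brd1+/- FLX 4, where 1.97% and 1.92% of all genes were. The numbers at an unadjusted p under 0.05 were 5 under vehicle, 3 under IMN and 23 under FLX in the genotype comparisons, 20 for FLX against vehicle in WT mice, 18 in the FLX interaction and at most 6 in each of the other 7. In the FLX genotype comparison those 23 made up 34.8% of the 66 tested, where 16.6% of all genes had such a p. The share over all genes was 8.52% under vehicle, 3.58% under IMN, 16.8% for FLX against vehicle in WT mice and 16.8% in the FLX interaction. The gene with the smallest p of each role in the vehicle genotype comparison was Bdkrb2, a bradykinin receptor (1.23 ± 0.43; 0.255 to 0.603 TPM from WT to Brd1+/-), Itpr3, an IP3 receptor (0.44 ± 0.18; 1.03 to 1.44 TPM), Homer1, a scaffold that ties Grm5 to the IP3 receptor (-0.65 ± 0.31; 112 to 75.3 TPM), Camk2a, a calcium-calmodulin kinase (-0.54 ± 0.28; 687 to 474 TPM), and Pip4k2a, a phosphoinositide kinase (0.65 ± 0.22; 53.4 to 84.4 TPM), with adjusted p from 0.342 to 0.640 (limma).

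Under FLX the members of a role are given by their counts, with no test between roles. Of all genes tested in this genotype comparison, 16.6% had an unadjusted p under 0.05. Of the 24 other Gq-coupled receptors tested, 9 were lower and 0 higher in Brd1+/- mice at an unadjusted p under 0.05, with a median of -0.74 against -0.06 over all genes. They included the histamine receptor Hrh1 (-1.05 ± 0.30, adjusted p = 0.0920) and the orexin receptor Hcrtr2 (-1.36 ± 0.43, adjusted p = 0.117; limma). Some of the 24 receptors were near the floor, with means under 1 TPM over the 48 libraries, Bdkrb2 (0.67 TPM) among them. Of 16 effectors of diacylglycerol and calcium, 6 were higher and 0 lower, with a median of 0.43, among them Camk2a (1.04 ± 0.36, adjusted p = 0.147; limma). Of 13 enzymes of phosphoinositide and inositol phosphate turnover, 2 were higher, Itpka (1.82 ± 0.55) and Pip5k1a (0.35 ± 0.14), and 3 lower, Cds1, Itpkb and Inpp1. Of 8 regulators and scaffolds only Homer1 (1.03 ± 0.35) was past an unadjusted p of 0.05, and of 5 other alpha, phospholipase C beta and IP3 receptor genes, Plcb2 was higher (1.23 ± 0.40) and Itpr2 lower (-0.36 ± 0.13). None of these passed the adjusted threshold. Beside them stand the hypothalamic, Slc17a6, striatal and cortical-type markers given above, and oligodendrocyte (8 of 8 below 0, median -0.53), inhibitory neuron (3 of 3, -0.48), endothelium (5 of 5, -0.27) and astrocyte (6 of 6, -0.18) markers, 0 of them called. Choroid plexus markers lay above 0 (4 of 4 tested, median 1.09, 0 called). Their summed level (6 genes) ran from 6.69 to 8741 TPM in WT FLX (median 20.3). In Brd1+/- FLX it ran from 20.05 to 28826 TPM (median 65.99). The genotype difference of these markers was also above 0 under vehicle (5 of 5 tested) and IMN (4 of 4 tested), with 0 called. Their highest sum, 29511 TPM, was in WT vehicle 1. The part of any of these marker lists in these counts was not tested.

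**Figure D4:**
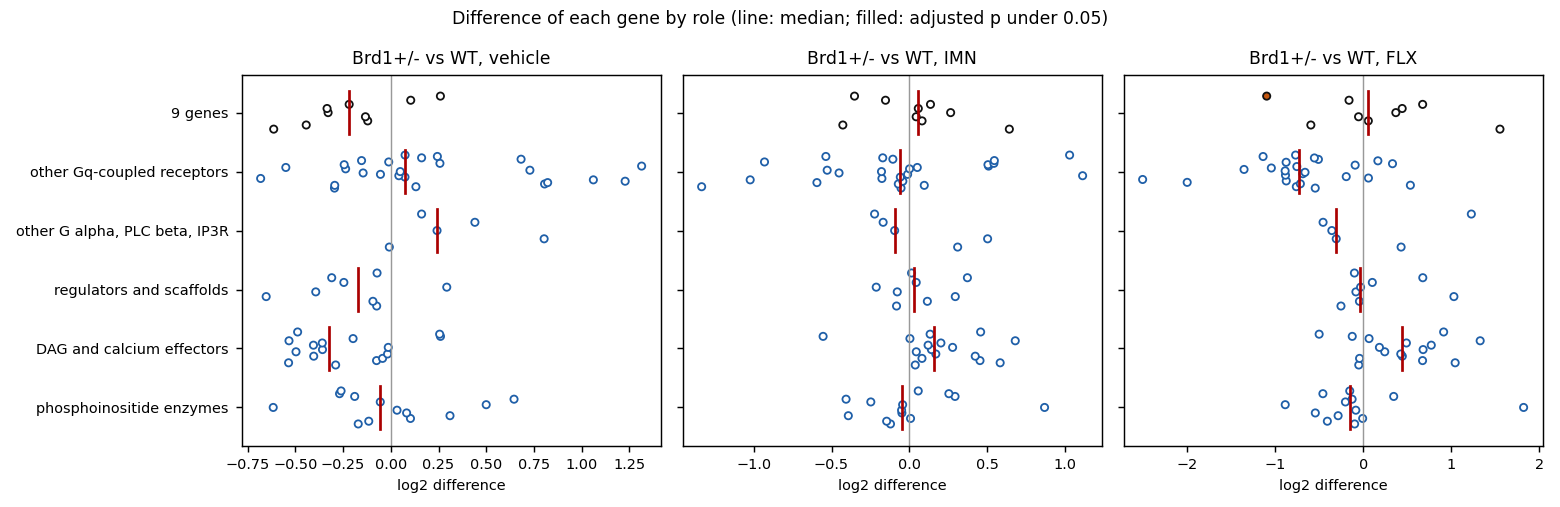
Log2 difference of Brd1+/- against WT under vehicle, IMN and FLX for the 9 members and for the 68 other pathway genes in 5 roles, with each point a gene and the red line the median of its role. Under FLX the other receptors lie mostly below 0 (median -0.74) and the effectors above it (median 0.43). Under vehicle the medians are 0.07 for these receptors and -0.32 for the effectors, with 14 of 16 effectors below 0 and 2 above. Under IMN they are -0.06 and 0.16, with 15 effectors above 0 and 1 below. Under FLX 12 effectors lie above 0 and 4 below.

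Between libraries, the members varied in a structured way. Since 13 libraries stood apart in striatal markers, correlations of members with each other and with marker lists are given in the 35 others, with group means removed, and in the 13 alone. Over all 48 only counts of these relations are given. In the 13, group means were kept and permutation ran across groups, so their r also holds differences between groups. Of the 36 member pairs, 23 had an adjusted p under 0.05 among the 35 libraries (14 positive, 9 negative; permutation within groups, 2-sided, adjusted over the 36) and 13 among the 13 libraries (5 positive, 8 negative). Of these, 10 pairs passed in both sets, each with the same sign. These counts are by r. By rho, the only pairs that passed in the 13 were Grm5 with Plcb1 (permutation, adjusted p = 0.00666), Grm5 with Plcb4 (0.0356) and Chrm3 with Plcb3 (0.00666).

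The alpha subunits Gnaq and Gna11 rose and fell together, with r = 0.69 and rho = 0.66 in the 35 libraries (permutation p = 0.00015 and 0.00016, adjusted p = 0.00054 and 0.000622) and r = 0.74 and rho = 0.68 in the 13 (permutation p = 0.00355 and 0.0131, adjusted p = 0.0128 and 0.0961). Leaving out the 2 libraries farthest from the median of Gna11 gave r = 0.74 and 0.53. Grm5 and Plcb1 also moved together, with r = 0.65 and rho = 0.59 in the 35 libraries (permutation p = 0.0001 and 0.00058, adjusted p = 0.00045 and 0.00161) and r = 0.94 and rho = 0.86 in the 13 (permutation p = 5e-05 and 0.00037, adjusted p = 0.0018 and 0.00666), and r = 0.59 and 0.92 without the 2 farthest. Chrm1 and Plcb1 had r = 0.79 and rho = 0.78 in the 35 libraries (permutation p = 1e-05 for each, the smallest that 100000 permutations can give, adjusted p = 0.00012 and 0.000144). In the 13 their r was 0.78 (permutation p = 0.00247, adjusted p = 0.0128) and their rho 0.53 (permutation p = 0.0641, adjusted p = 0.187).

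Plcb4 had a negative r with Grm5, Chrm1, Plcb1 and Itpr1 in both sets. Its r with Grm5 was -0.53 in the 35 libraries (rho = -0.53; permutation p = 0.00239 and 0.0035, adjusted p = 0.00506 and 0.00787) and -0.86 in the 13 (rho = -0.77; permutation p = 0.00023 and 0.00297, adjusted p = 0.00414 and 0.0356), and without the 2 farthest libraries it was -0.51 and -0.67. With its neighbour on chromosome 2, Plcb1, r was -0.42 in the 35 libraries (rho = -0.43; permutation p = 0.0129 and 0.0181, adjusted p = 0.0238 and 0.0296) and -0.79 in the 13 (rho = -0.63; permutation p = 0.00231 and 0.0257, adjusted p = 0.0128 and 0.116), and -0.41 and -0.61 without the 2 farthest. The Plcb1 and Plcb4 relation stood at -0.43 in each range of sample codes within the 35. Its sign was not shared by every group, since the within-group values ran from -0.82 to 0.35. With Chrm1, Plcb4 had r = -0.56 in the 35 libraries and r = -0.78 in the 13, of which the latter fell to -0.29 without the 2 farthest libraries and so rested on them. Plcb3 was likewise negatively related to Grm5, Chrm1 and Plcb1, at r = -0.62 with Grm5, -0.40 with Chrm1 and -0.53 with Plcb1 in the 35 libraries (permutation, adjusted p = 0.00122, 0.0367 and 0.00506) and -0.78, -0.77 and -0.84 in the 13 (adjusted p = 0.0128, 0.0128 and 0.00744). By rho these relations of Plcb3 did not pass in the 13 (-0.68, -0.57 and -0.65; permutation, adjusted p = 0.0961, 0.174 and 0.114). Plcb3 and Plcb4 had r = 0.31 in the 35 libraries (permutation p = 0.0818, adjusted p = 0.113) and 0.66 in the 13 (permutation p = 0.014, adjusted p = 0.0388; 0.47 without the 2 farthest). Their rho in the 13 was 0.41 (permutation p = 0.164, adjusted p = 0.3).

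Other relations differed in sign between the sets of libraries. Grm5 with Gna11 had r = 0.76 in the 35 libraries and -0.10 in the 13, and Gnaq with Itpr1 had 0.24 and -0.67. In all, 9 of the 36 pairs were of opposite sign between the sets, a difference that was not itself tested. Chrm3 had no pair past the threshold by r in the 35 libraries, where its r ranged from -0.31 (Plcb3) to 0.42 (Gnaq), although its rho with Gnaq passed there (0.43, permutation p = 0.0279, adjusted p = 0.0437). In the 13 it was opposed to Plcb3 (r = -0.75, rho = -0.87; permutation p = 0.0033 and 0.00022, adjusted p = 0.0128 and 0.00666).

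**Figure D5:**
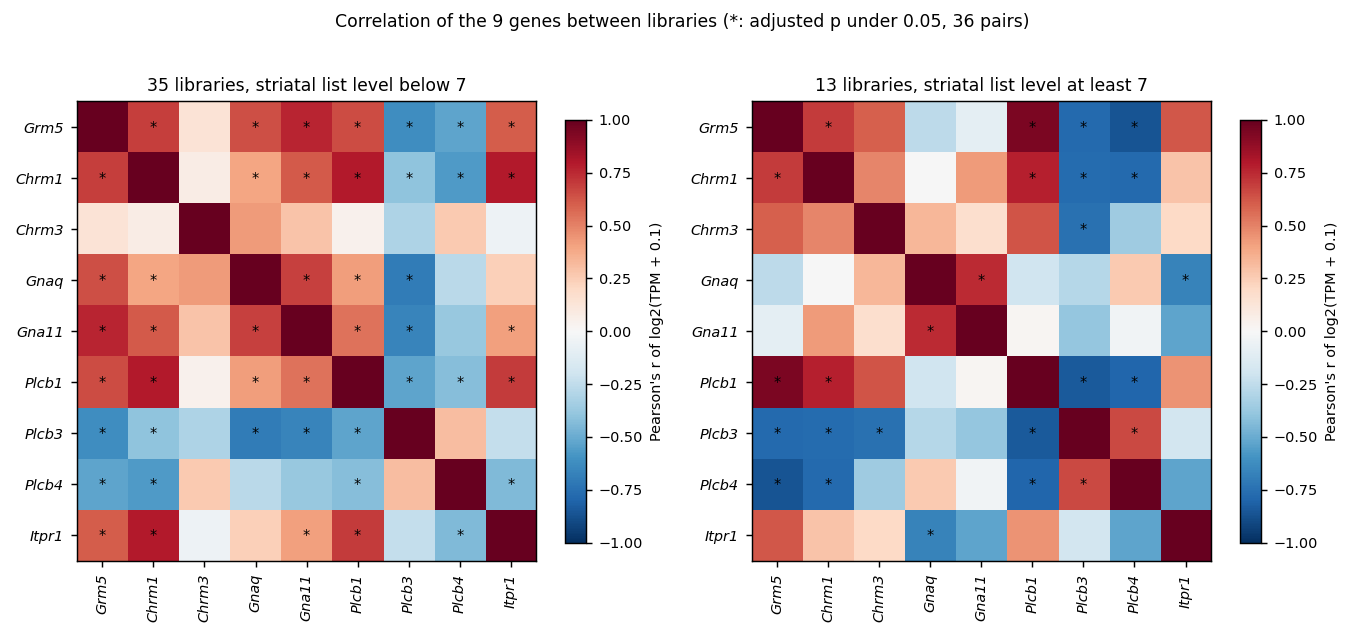
Pearson r between the 9 members on the log2 scale, in the 35 libraries of striatal level below 7 and in the 13 of level at least 7. Group means were removed in the 35 and kept in the 13. A star marks a permutation p under 0.05, adjusted over the 36 pairs. Grm5 with Plcb1 (0.65 and 0.94) and Gnaq with Gna11 (0.69 and 0.74) are positive in both, and Plcb4 is negative with Grm5, Chrm1, Plcb1 and Itpr1 in both.

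The members were also set against the 11 marker lists (99 relations, adjusted together). Plcb4 followed the hypothalamic list in the 35 libraries (r = 0.69, rho = 0.71; permutation p = 2e-05 and 4e-05, adjusted p = 0.00033 and 0.00066; r = 0.71 without the 2 farthest), and in the 13 it did not pass (r = 0.26, permutation p = 0.394, adjusted p = 0.542). With the list of thalamic and other Slc17a6 neurons its r was 0.65 in both sets (permutation p = 0.00015, adjusted p = 0.00127, and permutation p = 0.0172, adjusted p = 0.0587). With the oligodendrocyte list Plcb4 had r = 0.53 in the 35 libraries (permutation p = 0.00297, adjusted p = 0.0118) and 0.79 in the 13 (permutation p = 0.00215, adjusted p = 0.0164), and with the inhibitory neuron list 0.66 (permutation p = 8e-05, adjusted p = 0.00088) and 0.38 (permutation p = 0.195, adjusted p = 0.339). In the 13, its rho with the oligodendrocyte list was 0.49 (permutation p = 0.0922, adjusted p = 0.217). Its r with the inhibitory neuron list there was -0.61 without the 2 farthest libraries. In the 13 Plcb4 also passed by r with the astrocyte list (r = 0.80, rho = 0.48; permutation p = 0.00194 and 0.101, adjusted p = 0.0160 and 0.222), where r was 0.46 without the 2 farthest libraries, and with the striatal list (r = -0.67, rho = -0.70; permutation p = 0.00978 and 0.00982, adjusted p = 0.0403 and 0.0689). Plcb3 followed the astrocyte list, with r = 0.73 in the 35 libraries (permutation p = 2e-05, adjusted p = 0.00033) and 0.84 in the 13 (permutation p = 0.00066, adjusted p = 0.00726), and the oligodendrocyte list, with r = 0.67 and 0.93. Plcb1 followed the striatal list, with r = 0.56 in the 35 libraries (permutation p = 0.00064, adjusted p = 0.00317) and 0.72 in the 13 (permutation p = 0.00594, adjusted p = 0.0327), although within the lower range of sample codes of the 35 its r was 0.07, against 0.83 in the upper range.

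Among receptors and transducers, Grm5 was opposed by r to the oligodendrocyte list in both sets (r = -0.79, permutation p = 1e-05, adjusted p = 0.00033, and r = -0.86, permutation p = 0.0004, adjusted p = 0.00566). Its rho in the 13 did not pass (-0.58, permutation p = 0.0435, adjusted p = 0.145). Chrm1 was opposed to the hypothalamic list in the 35 libraries (r = -0.82, permutation p = 1e-05, adjusted p = 0.00033) and had r = -0.18 in the 13. It followed the cortical-type excitatory list in the 35 libraries (r = 0.68, permutation p = 2e-05, adjusted p = 0.00033). Itpr1 followed the striatal list by r within the 13 libraries (r = 0.86, rho = 0.65; permutation p = 0.00033 and 0.0197, adjusted p = 0.00566 and 0.0886) and had r = 0.27 in the 35. In all, 35 of the 99 relations passed by r in the 35 libraries, 25 in the 13 and 11 in both, those 11 with the same sign in each. Fewer passed by rho in the 13.

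The genes whose pattern was most like that of each member were sought among 13832 protein-coding genes of at least 1 TPM on average, by Pearson r of group-centred log2 levels over the 48 libraries, which share their composition and scaling. Grm5 was most like Adra2c (r = 0.92; 0.86 in the 35 libraries), Mchr1 and Trpc1. Chrm1 was most like Kcnh3 (0.94; 0.98), Icam5 and Nab2, and Chrm3 most like Lypd6b (0.75; 0.66), Pla2g4e and Vps4a. Gnaq was most like Glyr1 (0.95; 0.81), Ywhag and Tubb2a, and Gna11 most like Crmp1 (0.89; 0.87), Gpd1l and Pcdh1. Plcb1 was most like Gabra4 (0.95; 0.89), Kcnq3 and Ngef, Plcb3 most like Nfe2l2 (0.87; 0.83), Hadh and Abca1, and Plcb4 most like Kcnh2 (0.88; 0.84), Plch1 and Slc38a1. Itpr1 was most like Spry2 (0.93; 0.80), Lrrk2 and Chst15. No gene was shared between these lists of 3.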

How the data were processed

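Transcript levels were measured in amygdala punches of 48 female mice, 8 per group, with groups, doses and replicate numbers taken from the sample labels. Per the study's methods, libraries were made with a TruSeq kit and sequenced single-end. The submitters' processing notes name FastQC, Trimmomatic, HISAT2 2.1.0, StringTie 1.3.4 and GRCm38, and the authors deposited TPM, one column per library, without counts. TPM fixes the sum of each library, so a rise of abundant transcripts lowers the share of the rest, and depth and counting error are unknown. The series' design text names other regions than the labels do, and the labels (amygdala) were followed.

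Levels were transformed to log2(TPM + 0.1), which understates changes of low genes, and a gene was tested where 8 or more samples of the fit reached 0.1 TPM. Each of 12 comparisons was fitted across all genes with limma 3.58.1 in R 4.3.3 (eBayes with a trended prior, 2-sided), and a Benjamini-Hochberg adjusted p under 0.05 was called. Since TPM are not counts, this replaced the authors' edgeR comparisons. Correlations used 100000 permutations (Python 3.11.15, numpy 2.4.6, scipy 1.17.1). Over the 48 and over the 35 libraries, group means were removed and permutation ran within groups. In the 13, group means were kept and permutation ran across groups. The correlations had been planned over the 48 libraries together. Because 13 stood apart in striatal markers, they are given within each set, a choice made after seeing the data. Gene classes and coordinates came from GENCODE M21, where 52489 of 52636 identifiers were found, and promoters from RefSeq (GRCm38.p6). The code was tested on simulated data.

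The 9 members, the pathway and marker lists and the tests were chosen with earlier results of these data known. Named were all members, Brd1, every pathway gene called, the pathway gene with the smallest p per role in the vehicle genotype comparison and the 3 genes most like each member. Pathway genes named in the fluoxetine comparison beyond this rule were chosen after their values were seen, and the values of 1 pathway gene are not reported here. The highest correlation between libraries over genes was 0.962. Alternatives were pseudocounts of 0.01 and 1, no filter or TPM of at least 1, median-ratio scaling, quantile normalization, no trend, 1 fit of all samples, the replicate number as a block, the range of the sample codes, marker lists as covariates and the omission of single libraries. The range of the sample codes set vehicle codes above 127 and drug codes above 394 apart from lower ones. It does not adjust for the difference in code between vehicle (121 to 155) and drug libraries (351 to 445), whose ranges do not overlap. After the data had been seen came the fits without the 13 libraries and with the hypothalamic list as covariate.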

Additional observations from a re-analysis of the deposited data

Results flagged for a closer look

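In 2 of 54 sets of 8 libraries (9 members in 6 groups), the highest library was set apart from the rest by more than Dixon's 95% critical value of 0.526 of the range, where chance gives 2.7 of 54. Grm5 stood at 160.5 TPM in WT vehicle 3, with the next library at 116.8 TPM. Itpr1 stood at 480.0 TPM in Brd1+/- FLX 2, with the next at 259 TPM. Both libraries were among the 13 of high striatal marker level, at 9.16 and 9.13 on the log2 scale. The part of those markers in either value was not tested.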

How the results depend on the processing

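The Plcb4 call under fluoxetine kept its direction under all alternatives run. It also stayed past the threshold under other pseudocounts, filters and scalings and without a trend (adjusted p 0.0298 to 0.0484). The count of members called there was 0 with 1 fit of all samples (-1.10, adjusted p = 0.127), the replicate block (-1.10, adjusted p = 0.118), the sample code range (-1.06, adjusted p = 0.0646), marker list covariates (-0.51, adjusted p = 0.624), the hypothalamic covariate (-0.66, adjusted p = 0.960) and without the libraries of high striatal level (-0.94, adjusted p = 0.112), and it ran from 0 to 1 when libraries were left out. The cause was not tested. Of all genes, the fit of all samples called 29 and the block 46, against 364 before and 70 to 490 with single libraries left out. Replicate numbers were not a pairing (0 of 15 pairs of groups had every same-numbered pair correlated above 0.1), and the replicate block changed no other member call but gave 1 pathway call in the FLX interaction, Bdkrb2.

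For FLX against vehicle in WT mice, leaving out the libraries of high striatal level gave 1 member (Gnaq) and 4 pathway genes (P2ry1, Dgkz and Itpkb among them), and leaving out single libraries gave 0 to 1 members and 0 to 9 pathway genes, with most without WT vehicle 1. In the FLX interaction, single omissions gave 0 to 1 members and 0 to 6 pathway genes, and no trend gave 1 pathway gene, Itpr3. In the FLX genotype comparison pathway calls ran from 0 to 1. In the other 9 comparisons 0 members and 0 pathway genes were called under every alternative run.

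With marker list covariates, directions under vehicle reversed for Chrm1 (0.21), Gna11 (0.026), Plcb1 (0.14), Plcb3 (-0.19) and Plcb4 (-0.50), and for FLX against vehicle in WT mice for Chrm1 (0.039), Plcb1 (0.037) and Plcb4 (-0.087). With the hypothalamic covariate, those under FLX reversed for Chrm1 (-0.023) and Plcb1 (-0.034). None of these had been called. Over all 48 libraries 24 of 36 member pairs and 48 of 99 relations with marker lists passed by r, against 13 and 25 in the 13 libraries of high striatal level. TPM gives no depth, so no detection limit could be set for low genes.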
